A study of Mus musculus with 407 samples.

Results

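The genes described here are those of the mouse matrix metalloproteinases (Mmp), their tissue inhibitors (Timp), the disintegrin-like metalloproteinases with thrombospondin motifs (Adamts) and the Adamts-like proteins (Adamtsl). These gene families were chosen with earlier results of these data known. Within them genes were taken by symbol alone, as every gene whose name is Mmp, Timp, Adamts or Adamtsl followed by a digit. The rule found 51 of 24458 gene symbols: 23 Mmp, 4 Timp, 19 Adamts and 5 Adamtsl genes. Their RNA was measured in the diaphragm and in 3 limb muscles (gastrocnemius, soleus, tibialis anterior) of male and female C57BL/6J mice, an inbred strain, which carried no transgene or treatment named in the labels. The mice were bought at various ages, kept for about 12 weeks and killed with CO2 at 6, 12, 18, 21, 24 or 27 months. Each of the 48 combinations of sex, muscle and age held 6 to 10 libraries, with 8 in every group at 6 months and 10 in every group at 27 months, for 407 libraries in all. Tissues of 1 age were collected on the same day, so that age and collection day cannot be told apart.

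The extracellular matrix of muscle is a mesh of collagens, basement membrane proteins and proteoglycans made mainly by fibroblasts. Mmps are zinc-dependent enzymes that cut these proteins outside the cell, some secreted and some anchored in the membrane, and Timps block them by occupying the active site. Adamts enzymes include the procollagen N-propeptidases, which trim newly made procollagen so that it can assemble into fibrils, and enzymes that cut large proteoglycans such as versican and aggrecan. Adamts-like proteins share the non-catalytic domains, lack protease activity, and bind the matrix.

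Library totals lay between 38583802 and 300089909 counts, with a median of 72766895 and a second highest of 104836980. The muscles matched their labels: at 6 months the summed level of 6 slow fibre markers had a median of 13077 CPM (read counts scaled to a common library total) in the male soleus and 62.4 CPM in the male tibialis anterior. Mesothelial markers, of the cell layer that covers the diaphragm, summed to between 87.4 and 260 CPM in its 6-month libraries and to at most 3.27 CPM in those of limb muscle. For each library, log2 levels of expressed genes were correlated with the mean of the other libraries of its group, and the median r was 0.994. The 6 lowest values, from 0.8335 to 0.903, all belonged to diaphragm libraries: male 6-month replicate 2, male 21-month replicate 3, male 27-month replicate 6, female 6-month replicate 2, female 21-month replicate 0 and female 27-month replicate 0. The diaphragm was also fitted without these 6, and the calls that changed are given beside the results. Male 21-month replicate 3 was also the deepest library, and it and male 27-month replicate 6 were high in liver markers, with 11361 CPM in the latter against a group median of 28.8 CPM.

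Timp2, Timp3 and Mmp2 were the most abundant members when levels were set per kilobase of exon, the scale on which genes can be compared. Over all libraries the mean was 30.3 CPM per kilobase for Timp2, 22.7 for Timp3 and 17.7 for Mmp2, a gelatinase that cuts denatured collagen and basement membrane collagen. Adamts1, which cuts versican, followed at 9.31, then the Adamts-like genes Adamtsl5 at 8.92 and Adamtsl4 at 6.23. At the other end Mmp1a, Mmp1b, Mmp7, Mmp10, Mmp20 and Mmp21 were too low to be tested in any combination of muscle and sex, and Mmp10 had no read in 359 of 407 libraries. Mmp24 passed the filter on low counts in 1 combination, Adamts19 in 3, Mmp8 in 5, Mmp27 in 6 and Mmp13 in 7 of 8, and the remaining 40 members in all 8. A gene that passed only through the group in which it was high had to differ there, so the counts over tested members are descriptions.

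**Figure D1:**
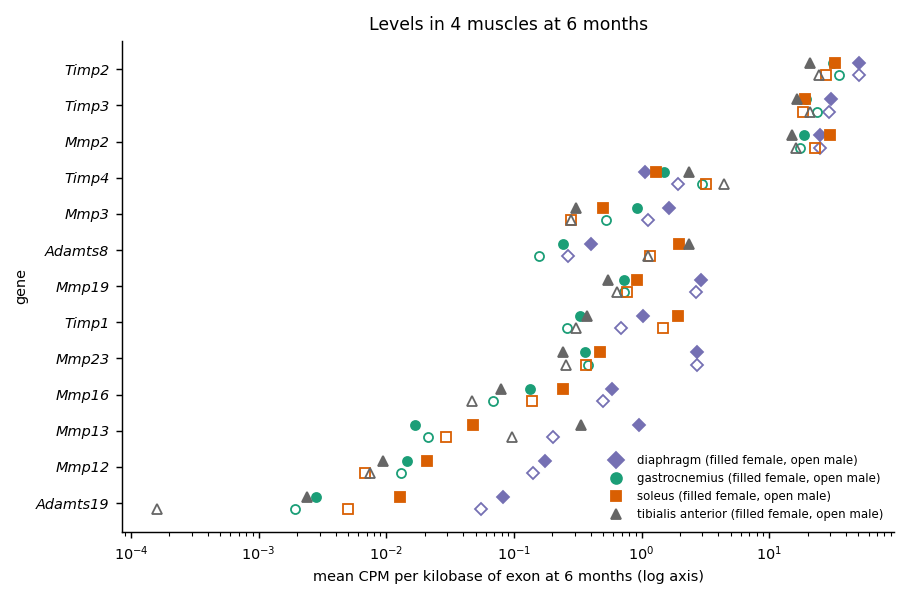
Level of selected members at 6 months in each muscle and sex, in CPM per kilobase of exon on a log axis. Shown are Timp1, Timp2, Timp3, Timp4, Mmp2, Mmp3, Mmp12, Mmp13, Mmp16, Mmp19, Mmp23, Adamts8 and Adamts19. Adamts1, Adamtsl5 and Adamtsl4 are not shown. Timp2, Timp3 and Mmp2 lie at the top in all 4 muscles, and many of the genes shown are higher in the diaphragm than in limb muscle.

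To ask which members differed between old and young adult muscle, 27 months was compared with 6 months within each muscle and sex. The quasi-likelihood test of edgeR was used, and p-values were adjusted by Benjamini and Hochberg's method over 14487 to 16193 genes. A gene was called when its adjusted p was below 0.05 and its fold change above 1.5. In all, 57 calls were made over 342 tests of members, 23 higher and 34 lower at 27 months, and 25 members were called at least once. Over the same 8 combinations 4.18% of all gene tests were called, 2.96% higher and 1.21% lower, the shares beside which the counts by role below can be read. The 6- and 27-month libraries did not overlap at all in 7 of these 57 calls, or 12.3%, beside 16.8% of the calls of all genes and 1.63% of all gene tests: Mmp16 in the female gastrocnemius, Mmp8 in the male gastrocnemius, Adamts2 in the male gastrocnemius and tibialis anterior, and Adamts12 in the male gastrocnemius, soleus and tibialis anterior. Where a replicate number is said to be left out, the libraries of that number were dropped at every age, and a single library is named by its age. Since whole muscle was sequenced, fewer cells of a type and less RNA per cell cannot be told apart in any of these values.

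In the female diaphragm, 1 member of 44 was called higher (Mmp3) and 4 lower (Adamts2, Adamts19, Adamts3 and Mmp2), beside 0.543% and 0.692% of all genes tested. Of 42 members tested in the female gastrocnemius, 5 were higher (Mmp17, Mmp13, Mmp12, Adamts7 and Timp1) and 3 lower (Adamts16, Mmp16 and Adamts3), beside 4.08% and 0.898%. The female soleus had no higher call, where 1.72% of all genes had one and 2 members had an unadjusted p below 0.05, and 8 lower calls of 42 (Adamts12, Adamtsl2, Mmp9, Mmp16, Adamtsl1, Adamts3, Mmp2 and Adamts15), beside 2.41%. The female tibialis anterior had 3 members higher (Mmp12, Mmp3 and Mmp27) and 3 lower (Mmp16, Adamts3 and Adamts8) of 42, beside 5.93% and 1.08%. In that muscle all 9 tested liver markers were called higher as well, with a summed level of 13.5 CPM (1.64 to 22.9) at 6 months and 74.2 CPM (4.88 to 621) at 27 months by medians, and so were 3 of 6 slow fibre markers, with 1 lower, and 2 of 6 adipocyte markers. Their part in the calls of members was not tested. The share of members called lower was above the share of all genes in every female muscle, and the share called higher was not above it in the soleus.

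In males, the diaphragm had 6 of 45 members higher (Mmp19, Mmp25, Adamts9, Mmp3, Mmp8 and Timp1) and 3 lower (Adamts12, Adamts19 and Mmp16), beside 4.16% and 1.44% of all genes. All 5 tested T cell markers were called higher there too, with a summed median of 1.08 CPM (0.683 to 1.60) at 6 months and 8.43 CPM (0.865 to 20.4) at 27 months, and their part in the higher calls was not tested. Without 27-month replicate 8 alone 5 of the 9 diaphragm calls remained, those of Mmp19, Adamts9, Timp1 and Adamts19 being lost. The gastrocnemius had 5 of 42 higher (Mmp19, Mmp12, Mmp3, Mmp8 and Timp1) and 6 lower (Adamts2, Mmp28, Adamts16, Adamts12, Mmp16 and Adamts3), beside 3.88% and 1.53%. In the soleus, Adamts12 alone was called, as lower, among 42 members, and all genes gave 0.808% higher and 0.378% lower, while 13 members had an unadjusted p below 0.05. The tibialis anterior had 3 of 43 higher (Mmp13, Mmp12 and Mmp8) and 6 lower (Adamts2, Mmp28, Adamts16, Adamts12, Adamts10 and Adamts3), beside 2.81% and 1.29%. The median log2 fold change over the members tested lay between -0.35 in the female soleus and 0.07 in the female gastrocnemius, while the median of all genes stayed between -0.03 and 0.03.

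Without the 6 diaphragm libraries that stood apart, every call in both diaphragms was kept and 6 were added, so that the female diaphragm had 8 members called and the male diaphragm 12. The added ones were all lower at 27 months: Mmp9, Mmp13 and Mmp16 in females and Mmp2, Adamts17 and Adamtsl2 in males. Mmp13 there changed from -0.99 to -2.31 on the log2 scale.

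**Figure D2:**
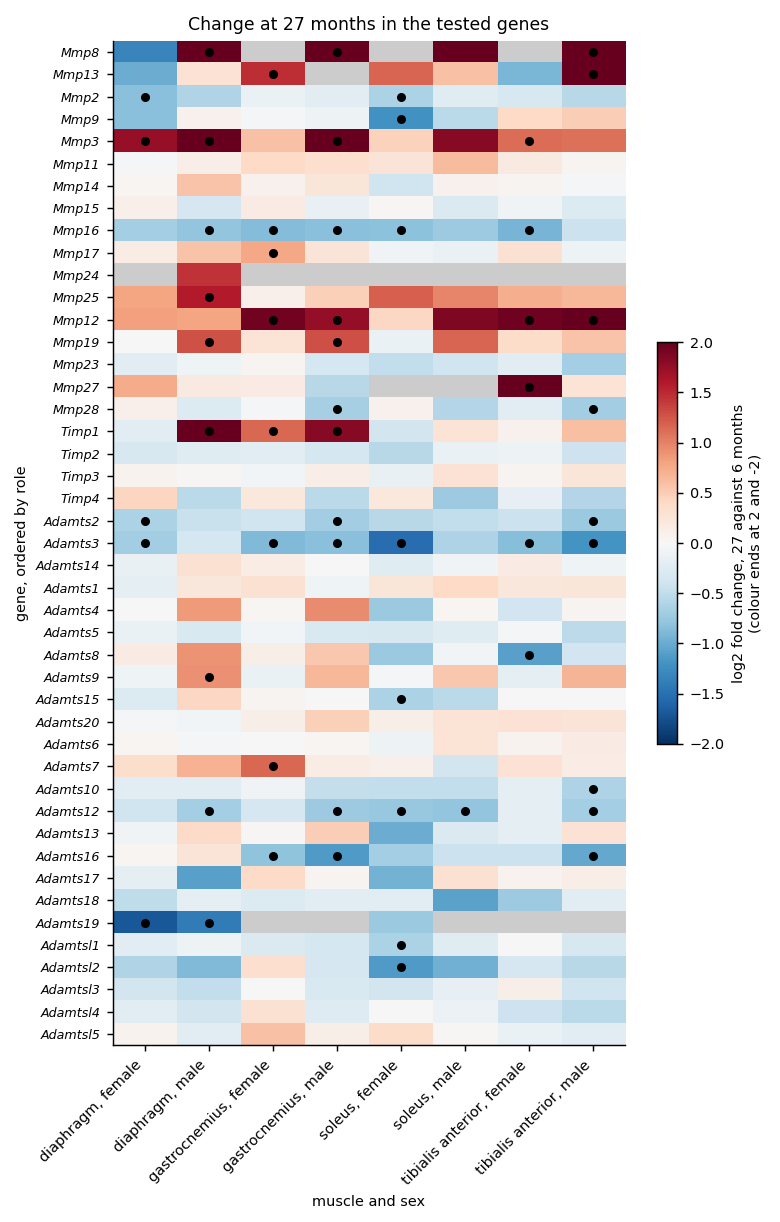
Log2 fold change of each member at 27 against 6 months in the 8 combinations of sex and muscle, with the calls (adjusted p below 0.05 and fold above 1.5) marked. Calls of lower level gather on Adamts and Mmp16, and calls of higher level on Mmp3, Mmp8, Mmp12 and Timp1.

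Among the procollagen N-propeptidases, Adamts2 and Adamts3 fell and Adamts14 did not pass the test in any muscle. The 3 genes gave 9 lower calls and no higher call over 24 tests, with a median log2 fold change of -0.47. Adamts3 was the member called most often, lower in 6 of 8 combinations, and its log2 fold change was negative in all 8, from -1.52 to -0.36.

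In the female soleus, Adamts3 lay between 2.58 and 5.77 CPM at 6 months, with a median of 4.36, and between 0.714 and 3.24 CPM at 27 months, with a median of 1.14. Of the 10 old libraries, 9 were below every young one, and the groups overlapped through the remaining library. The log2 fold change there was -1.52 (SE 0.257, adjusted p = 2.73e-05). In the male tibialis anterior Adamts3 had a median of 2.25 CPM (1.5 to 3.19) at 6 months and 1.06 CPM (0.587 to 1.57) at 27 months. The change was -1.19 (SE 0.176, adjusted p = 2.55e-06), and again 9 of 10 old libraries were below every young one. The other called changes of Adamts3 were -0.88 in the female gastrocnemius, -0.85 in the female tibialis anterior, -0.84 in the male gastrocnemius and -0.70 in the female diaphragm. It did not pass in the male diaphragm (-0.36, SE 0.146, adjusted p = 0.114) or the male soleus (-0.62, SE 0.253, adjusted p = 0.198). At the ages between, the median of Adamts3 in the female soleus was 1.99 CPM at 12, 1.89 at 18, 1.47 at 21 and 1.63 at 24 months. The change at 12 months did not pass (-0.80, SE 0.270, adjusted p = 0.274), and those at 18 months and later were called.

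Adamts2, the main procollagen N-propeptidase of skin and tendon, had a negative log2 fold change in all 8 combinations, from -0.75 to -0.40, with an adjusted p below 0.05 in 6 and a fold above 1.5 in 3 of these. In the male tibialis anterior it ranged from 12.8 to 18.3 CPM at 6 months, with a median of 15.6, and from 7.75 to 10.9 CPM at 27 months, with a median of 8.51. The groups did not overlap, and the log2 fold change was -0.75 (SE 0.120, adjusted p = 1.17e-05). The male gastrocnemius was alike, with a median of 19.8 CPM (16.8 to 21.6) at 6 months and 12.1 CPM (8.95 to 15.5) at 27 months, again without overlap, and a change of -0.69 (SE 0.120, adjusted p = 1.74e-05). The call of Adamts2 in the female diaphragm (-0.64, SE 0.17, adjusted p = 0.0379) was lost when replicate 0, 3, 4, 5, 6, 7 or 9 was left out, and its adjusted p without the 6 libraries that stood apart was 0.00423. Adamts14, the remaining N-propeptidase, changed by between -0.24 and 0.31, and its lowest adjusted p was 0.377.

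The members of the Adamts family that cut other substrates gave 11 lower calls and 1 higher over 67 tests, beside 1.21% and 2.96% of all gene tests. Adamts12, which is known to cut cartilage oligomeric matrix protein, accounted for 5 of the lower calls, and its log2 fold change was negative in all 8 combinations, from -0.79 to -0.18. Adamts12 in the male gastrocnemius lay between 6.60 and 9.92 CPM at 6 months, with a median of 8.10, and between 3.72 and 6.18 CPM at 27 months, with a median of 5.08. No old library reached a young one, and the change was -0.73 (SE 0.0990, adjusted p = 1.86e-07). The male soleus and tibialis anterior were also without overlap, with changes in Adamts12 of -0.79 (SE 0.137, adjusted p = 0.000210) and -0.69 (SE 0.111, adjusted p = 1.45e-05). In the female soleus the change was -0.75 (SE 0.149, adjusted p = 0.000264), with 8 of 10 old libraries below every young one. Adamts12 in the male diaphragm (-0.68, adjusted p = 0.0259) lost its call without replicate 0 or 1.

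Adamts16 was called lower in 3 gastrocnemius and tibialis anterior comparisons. Its median in the male gastrocnemius was 0.891 CPM (0.612 to 1.23) at 6 months and 0.405 CPM (0.228 to 0.630) at 27 months, and 8 of 10 old libraries were below every young one. The log2 fold change of Adamts16 was -1.13 there (SE 0.266, adjusted p = 0.00121), -0.80 in the female gastrocnemius (SE 0.242, adjusted p = 0.00958) and -1.02 in the male tibialis anterior (SE 0.373, adjusted p = 0.0491). The last of these calls was lost when any of replicates 1, 2, 3, 6, 7 and 8 was left out. The lone higher call among these genes was Adamts7 in the female gastrocnemius, an enzyme that also cuts cartilage oligomeric matrix protein, and it rested on replicate 0. The 27-month library of that number held 5.58 CPM against a group median of 0.770, and without it alone the log2 fold change of Adamts7 went from 1.15 to 0.44 (adjusted p = 0.0240), under the fold limit. Fibroblast markers of the same library summed to 1865 CPM, the highest of its group, whose median was 844 CPM.

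Of the proteoglycan-cutting Adamts, 7 genes with 56 tests, 1 call was higher and 2 lower, beside the same 2.96% and 1.21%, and the median log2 fold change was 0.01. Adamts8 was called lower in the female tibialis anterior, where it had a median of 10.7 CPM (7.83 to 13.9) at 6 months and 4.90 CPM (2.51 to 8.13) at 27 months. Of the 10 old libraries, 9 were below every young one, and the change was -1.08 (SE 0.213, adjusted p = 0.000166). Adamts15 was lower in the female soleus (-0.63, lost without replicate 1), and Adamts9 was higher in the male diaphragm (0.91, lost without replicate 8). The Adamts-like genes, which have no protease activity, gave 2 lower calls of 40 tests, both in the female soleus, where 2.41% of all genes were lower. These were Adamtsl1 (-0.63, adjusted p = 0.000589) and Adamtsl2 (-1.13, adjusted p = 0.0115, lost without replicate 1), the latter known as a binding partner of fibrillin and latent TGF-beta binding protein.

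Mmp16, a membrane-type Mmp that can activate Mmp2, fell in 5 of 8 combinations and had a negative log2 fold change in all 8, from -0.94 to -0.43. In the female gastrocnemius Mmp16 lay between 0.890 and 1.35 CPM at 6 months, with a median of 1.14, and between 0.4658 and 0.814 CPM at 27 months, with a median of 0.612. The groups did not overlap, and the change was -0.87 (SE 0.131, adjusted p = 1.12e-06). The female soleus changed by -0.82 (SE 0.175, adjusted p = 0.000651), the female tibialis anterior by -0.94 (SE 0.235, adjusted p = 0.00275) and the male gastrocnemius by -0.83 (SE 0.193, adjusted p = 0.00102). The call of Mmp16 in the male diaphragm (-0.79, adjusted p = 0.0287) was lost without replicate 0, 1, 2, 5 or 8. Mmp14, the most abundant of the membrane-type enzymes after Mmp15 on the per-kilobase scale and likewise an activator of Mmp2, was called nowhere, with changes from -0.40 to 0.57 and a lowest adjusted p of 0.0570.

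The 2 gelatinases gave 3 lower calls and no higher call over 16 tests, beside 1.21% and 2.96% of all gene tests. Mmp2 had a negative log2 fold change in all 8 combinations, from -0.83 to -0.14. In the female soleus Mmp2 had a median of 106 CPM (76.9 to 114) at 6 months and 67.6 CPM (43.7 to 89.7) at 27 months, and 9 of 10 old libraries were below every young one. The change there was -0.63 (SE 0.141, adjusted p = 0.00107), and the call was lost without replicate 5 or 7, when the fold fell under 1.5. In the female diaphragm Mmp2 had a median of 94.1 CPM at 6 months and 53.6 CPM at 27 months, but replicate 2 at 6 months held 24.0 CPM and replicate 0 at 27 months 13.4 CPM, both among the libraries that stood apart. The log2 fold change was -0.83 (SE 0.223, adjusted p = 0.0395) with all libraries and -0.87 (SE 0.155, adjusted p = 0.000547) without the 6. Mmp2 in the male diaphragm passed only without them, at -0.70 (SE 0.141, adjusted p = 0.00163) against -0.60 (SE 0.229, adjusted p = 0.0855) with them. Mmp9, a gelatinase made in large amounts by neutrophils, fell in the female soleus from a median of 1.29 CPM (0.815 to 2.83) to 0.776 CPM (0.0777 to 1.17), a change of -1.22 (SE 0.320, adjusted p = 0.00492). In the other 7 combinations its change lay between -0.83 and 0.50 and did not pass.

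**Figure D3:**
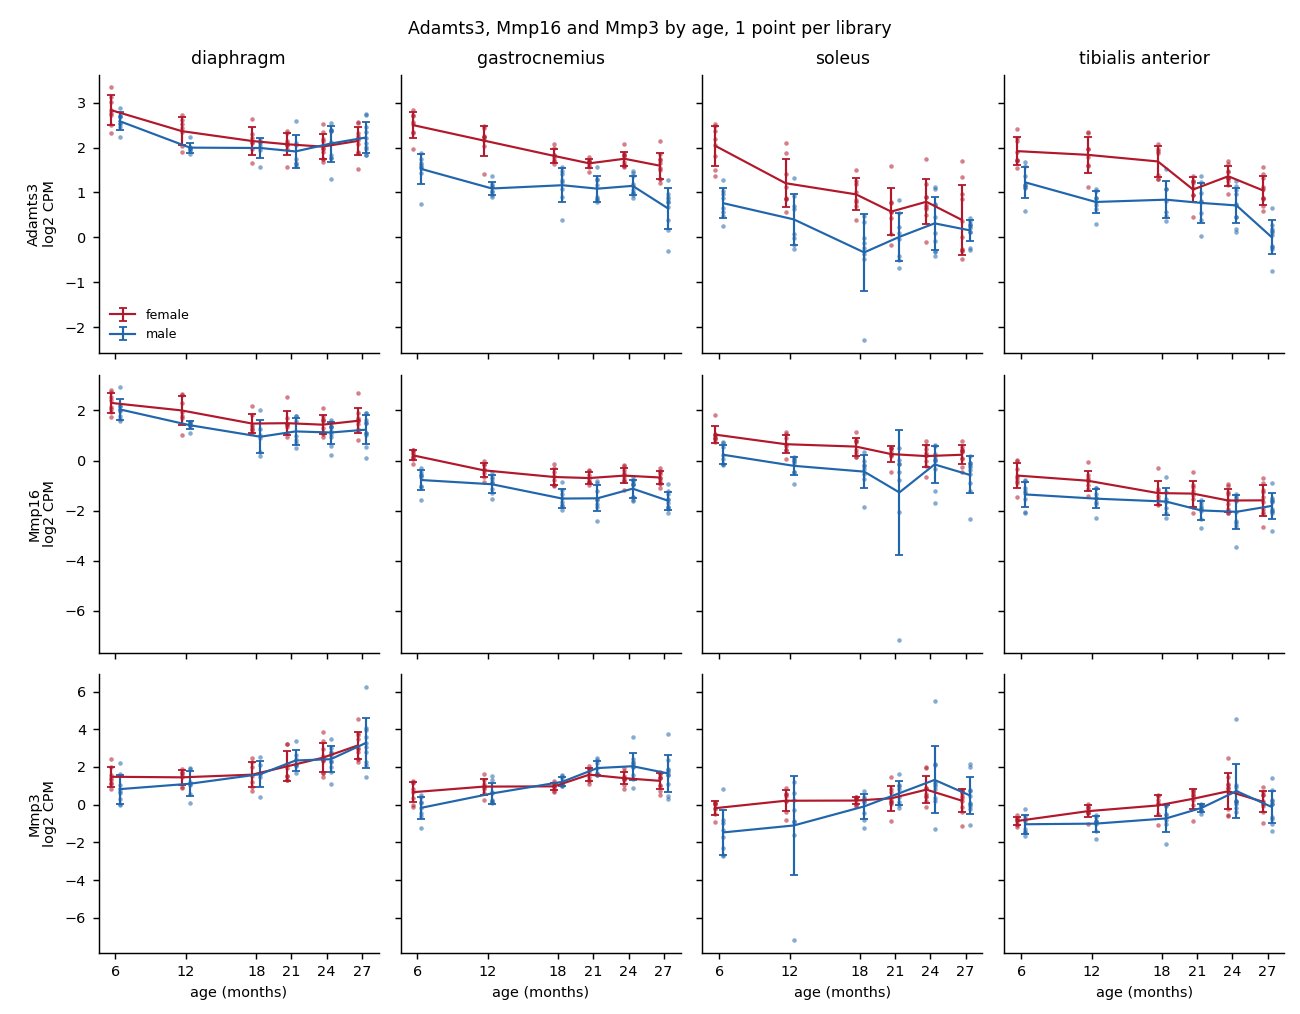
Log2 CPM per library of Adamts3, Mmp16 and Mmp3 at 6 to 27 months in each muscle and sex. Lines and bars give the mean and standard deviation of each group. The fitted change at 27 against 6 months was negative for Adamts3 and Mmp16 and positive for Mmp3 in all 8 combinations. It was called in 6, 5 and 4 of these for Adamts3, Mmp16 and Mmp3. The spread of Mmp3 widened in old male muscle, up to 75.4 CPM in the diaphragm.

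Stromelysin Mmp3, which cuts proteoglycans and basement membrane proteins and can activate other Mmps, moved the other way. Its log2 fold change was positive in all 8 combinations, from 0.46 to 2.94, and it was called higher in 4. In the male diaphragm Mmp3 lay between 0.993 and 4.55 CPM at 6 months, with a median of 1.60, and between 2.77 and 75.4 CPM at 27 months, with a median of 8.97. Of the old libraries, 8 of 10 were above every young one, and the change was 2.94 (SE 0.468, adjusted p = 0.000101), or 3.02 (SE 0.505, adjusted p = 0.000189) without the libraries that stood apart. In the female diaphragm Mmp3 had a median of 2.57 CPM (1.77 to 5.39) at 6 months and 7.94 CPM (4.78 to 23.1) at 27 months, a change of 1.75 (SE 0.336, adjusted p = 0.00198). The male gastrocnemius held 0.961 CPM (0.422 to 1.41) against 3.13 CPM (1.23 to 13.6), a change of 2.09 (SE 0.337, adjusted p = 5.20e-06), and in the female tibialis anterior 0.560 CPM (0.438 to 0.679) against 1.10 CPM (0.503 to 1.87), a change of 1.12 (SE 0.290, adjusted p = 0.00371). These 4 calls were kept when any 1 replicate number was left out. The other stromelysins gave no call: Mmp11 changed by between -0.04 and 0.64, and Mmp10 was not tested.

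Mmp12, the macrophage elastase, was called higher in the gastrocnemius and tibialis anterior of both sexes and was positive in all 8 combinations, from 0.41 to 2.16. In the female tibialis anterior Mmp12 lay between 0.0165 and 0.130 CPM at 6 months, with a median of 0.0601, and between 0.0964 and 0.535 CPM at 27 months, with a median of 0.259. Of the old libraries, 9 of 10 were above every young one, and the change was 1.95 (SE 0.444, adjusted p = 0.000976). The changes in the female gastrocnemius, male gastrocnemius and male tibialis anterior were 1.93 (SE 0.408), 1.76 (SE 0.458) and 2.16 (SE 0.524). Beside these, the summed level of 10 macrophage markers in the female tibialis anterior had a median of 55.6 CPM (34.2 to 68.7) at 6 months and 70.5 CPM (49.7 to 134) at 27 months. Over all muscles 8 of 80 tests of the markers were called higher and none lower, beside 2.96% and 1.21% of all gene tests. The higher calls were 4 of 10 in the female tibialis anterior, 1 of 10 in each gastrocnemius and 2 of 10 in the male diaphragm. In the male tibialis anterior none was called, and the median log2 fold change of the markers was -0.07. The part of macrophage number in the level of Mmp12 was not tested.

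The collagenases gave 5 higher calls and no lower call over 12 tests, beside 2.96% and 1.21% of all gene tests. Mmp8, the neutrophil collagenase, lay between 0 and 0.0854 CPM in the male gastrocnemius at 6 months and between 0.114 and 0.421 CPM at 27 months. The groups did not overlap, but their totals over the libraries were 23 and 165 counts, and the fitted change of Mmp8 was 2.45 (SE 0.506, adjusted p = 0.000257). In the male diaphragm its median was 0.0243 CPM (0.0137 to 0.0786) at 6 months and 0.205 CPM (0.0266 to 1.32) at 27 months, a change of 3.32 (SE 0.772, adjusted p = 0.00746). The call in the male tibialis anterior (2.52, SE 0.852, adjusted p = 0.0322) was lost without replicate 1, 2, 3, 5 or 7. Of the neutrophil markers tested, 1 of 8 was called higher in the male tibialis anterior, 2 of 4 in the male gastrocnemius and 2 of 6 in the male diaphragm. Their sum over 10 genes in the male tibialis anterior had a median of 0.5255 CPM (0.353 to 17.9) at 6 months and 7.23 CPM (0.555 to 44.9) at 27 months. In the male gastrocnemius the same sum went from 0.226 CPM (0.125 to 0.675) to 0.478 CPM (0.349 to 2.27), and in the male diaphragm from 0.751 CPM (0.192 to 3.15) to 2.32 CPM (0.923 to 14.9), so that the ranges overlapped in each. Their part in the Mmp8 result was not tested.

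Mmp13, the main collagenase of rodents, was called higher in the female gastrocnemius, with a median of 0.0344 CPM (0 to 0.102) at 6 months and 0.123 CPM (0.0548 to 0.206) at 27 months and a change of 1.48 (SE 0.430, adjusted p = 0.00717). In the male tibialis anterior it spread from 0 to 3.56 CPM at 27 months and from 0 to 0.968 CPM at 6 months, and the call (2.12, SE 0.765, adjusted p = 0.0461) was lost without replicate 0, 1, 2, 4, 5 or 7. Mmp27 was called in the female tibialis anterior only among the 6 combinations where it was tested, from a median of 0.0244 CPM (0 to 0.0711) to 0.116 CPM (0.0297 to 0.581), a change of 2.70 (SE 0.613, adjusted p = 0.000955).

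Mmp3, Mmp8, Mmp12, Mmp13 and Mmp27 belong on chromosome 9 to a cluster of 10 Mmp genes between bases 7272514 and 7699585 of GRCm38 that also holds Mmp1a, Mmp1b, Mmp7, Mmp10 and Mmp20. The 5 tested genes of the cluster gave 14 higher calls and no lower call over 34 tests, beside 2.96% and 1.21% of all gene tests. These were 14 of the 23 higher and none of the 34 lower calls of members, and 30 of the 34 tests were positive. Mmp8, Mmp13 and Mmp27 passed the filter in 5, 7 and 6 of 8 combinations, at median counts of 4, 11 and 5 per library. A gene that passed only through a group in which it was high had to differ there. AP-1 is a transcription factor known to act at collagenase and stromelysin promoters, and its letters TGANTCA, which read alike on both strands, were searched in the 250 bases before each RefSeq start. They were found before 8 of the 10 cluster genes (Mmp1a, Mmp1b, Mmp3, Mmp7, Mmp10, Mmp12, Mmp13 and Mmp20) and before none of the 26 other members with a window. The other 15 members had no window and could not be searched. These were Mmp2, Mmp9, Mmp16, Mmp17, Mmp19, Adamts4, Adamts5, Adamts6, Adamts7, Adamts8, Adamts10, Adamts15, Adamts16, Adamts19 and Adamtsl1. Of all 27025 symbols with a window 7.82% held the letters in any of their windows, and of all 32851 windows 6.75% did. Mmp8 and Mmp27, which were also called higher, did not hold them. Of the 8 that did, Mmp3, Mmp12 and Mmp13 were called higher and Mmp1a, Mmp1b, Mmp7, Mmp10 and Mmp20 were too low to test. The part of AP-1 in these calls was not tested. The TATA box letters TATAAA, searched on both strands, were in the windows of 10 of 36 members, beside 14.3% of all symbols and 12.4% of all windows.

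Below are the windows of Mmp3 (chr9:7445572-7445821, + strand) and Mmp13 (chr9:7272264-7272513, + strand), 2 cluster genes that were called higher, and of Adamts3 (chr5:89883335-89883584, - strand), the member called lower most often. They are RefSeq sequences of GRCm38.p6, read 5′ to 3′ toward the gene start, with the AP-1 letters in capitals. The letters begin 46 bases before the start of Mmp3 and 35 bases before that of Mmp13, and the Adamts3 window has none. The G and C share of the window was 37.6% for Mmp3, 40.4% for Mmp13 and 78.0% for Adamts3.
Mmp3: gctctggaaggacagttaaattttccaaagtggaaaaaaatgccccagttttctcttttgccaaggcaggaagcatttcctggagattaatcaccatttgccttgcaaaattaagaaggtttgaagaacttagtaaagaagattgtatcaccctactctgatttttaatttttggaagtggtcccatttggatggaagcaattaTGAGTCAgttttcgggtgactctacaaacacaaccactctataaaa
Mmp13: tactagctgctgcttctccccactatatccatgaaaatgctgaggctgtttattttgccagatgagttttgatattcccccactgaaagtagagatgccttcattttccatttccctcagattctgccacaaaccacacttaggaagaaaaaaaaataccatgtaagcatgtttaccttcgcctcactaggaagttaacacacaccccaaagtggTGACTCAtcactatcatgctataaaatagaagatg
Adamts3: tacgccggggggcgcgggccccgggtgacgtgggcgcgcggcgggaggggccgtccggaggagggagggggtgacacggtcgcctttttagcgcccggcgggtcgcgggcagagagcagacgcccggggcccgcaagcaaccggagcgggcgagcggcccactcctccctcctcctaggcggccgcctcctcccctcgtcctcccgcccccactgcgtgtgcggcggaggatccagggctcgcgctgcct

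Among the remaining Mmps, Mmp28 was called lower in the male gastrocnemius (-0.67, SE 0.130, adjusted p = 0.000102) and male tibialis anterior (-0.70, SE 0.223, adjusted p = 0.0241). Mmp28 had a median in the male gastrocnemius of 1.99 CPM (1.70 to 2.55) at 6 months and 1.21 CPM (0.901 to 1.77) at 27 months, and 9 of 10 old libraries were below every young one. The first of these calls was lost without replicate 2, when the fold fell under 1.5, and the other without replicate 1, 2, 3 or 4. Mmp25, a membrane-type Mmp of leukocytes, was called higher in the male diaphragm, from a median of 0.317 CPM (0.0262 to 0.427) to 0.763 CPM (0.346 to 1.57), a change of 1.58 (SE 0.341, adjusted p = 0.00417) that kept its call in each refit. Mmp17 was called higher in the female gastrocnemius by 0.77 (adjusted p = 0.00140), from a median of 0.517 CPM (0.290 to 0.742) to 0.781 CPM (0.530 to 1.79). It kept its call without any 1 replicate number, but its change then went as low as 0.589, just above the fold limit. Mmp19 was called higher in the male diaphragm and gastrocnemius, but its medians hardly differed, at 9.79 and 11.4 CPM in the diaphragm and at 2.55 and 2.56 CPM in the gastrocnemius. The gastrocnemius call of Mmp19 was lost without replicate 1 or 3, and the diaphragm call in 7 of 10 refits that left out a replicate number.

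The Timps gave 3 calls over 32 tests, all higher, beside 2.96% of all gene tests, and all of Timp1, which is known to be induced by inflammatory signals. In the female gastrocnemius Timp1 lay between 0.103 and 0.484 CPM at 6 months, with a median of 0.308, and between 0.441 and 1.15 CPM at 27 months, with a median of 0.593. Of the 10 old libraries 8 were above every young one, the change was 1.15 (SE 0.256, adjusted p = 0.000486), and it was kept in each refit. In the male diaphragm the medians of Timp1 were 0.730 and 0.892 CPM, and replicate 8 at 27 months held 28.0 CPM. The fitted change of 2.72 (SE 0.641, adjusted p = 0.00826) went to 1.19 without that library alone (adjusted p = 0.114) and was no longer called. In the male gastrocnemius the medians were 0.215 and 0.371 CPM with a highest old library of 3.57 CPM, and the change of 1.82 (SE 0.5, adjusted p = 0.00567) went to 1.16 without 27-month replicate 1 alone (adjusted p = 0.0559) and lost its call. That library was also the highest in macrophage markers, at 270 CPM against a median of 107 CPM.

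Timp2, which both inhibits Mmp2 and takes part in its activation by Mmp14, had a negative log2 fold change in all 8 combinations, from -0.55 to -0.11. Its adjusted p was below 0.05 in 4, but no fold passed 1.5. The largest was in the female soleus, where the median of Timp2 was 132 CPM (94.6 to 154) at 6 months and 84.8 CPM (71.6 to 113) at 27 months, a change of -0.55 (SE 0.126, adjusted p = 0.00128). Timp3, the matrix-bound inhibitor that also acts on Adamts enzymes, had no adjusted p below 0.333, with changes from -0.14 to 0.29 and medians from 132 to 253 CPM at 6 months and 137 to 248 CPM at 27 months. Timp4, the Timp best known from heart and muscle, did not pass at 27 months in any combination, with positive changes in 3 of the female muscles and negative changes in all 4 male muscles.

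At 21 and 24 months, however, Timp4 differed from 6 months in opposite directions in females and males. The interaction of sex and age at these ages was tested after its levels had been seen, in the same fits as the interaction at 27 months. In the female gastrocnemius the median of Timp4 was 9.03 CPM (5.50 to 12.4) at 6 months, 14.0 CPM (9.22 to 21.2) at 21, 14.9 CPM (9.79 to 22.3) at 24 and 9.80 CPM (6.73 to 15.2) at 27 months. In the male gastrocnemius it was 20.2 CPM (6.41 to 25.5) at 6 months, 8.78 CPM (5.13 to 14.3) at 21, 9.35 CPM (7.10 to 12.2) at 24 and 11.2 CPM (6.52 to 18.0) at 27 months. Females thus had less Timp4 than males at 6 months and more at 24 months, by medians. In the tibialis anterior the female medians were 14.1 CPM at 6 and 20.6 CPM at 24 months, and the male medians were 30.6 and 12.7 CPM.

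The 24-month change of Timp4 was 1.25 in the diaphragm, 0.84 in the gastrocnemius and 0.81 in the soleus of females, all called, and 0.58 in the tibialis anterior, which did not pass the fold limit. In males it was -0.91 (gastrocnemius), -1.18 (soleus) and -1.13 (tibialis anterior), all called, and -0.72 in the diaphragm, which did not pass. The male minus female difference of these changes was called in all 4 muscles at both ages. The labels do not say which libraries came from 1 mouse. The 4 muscles may share mice, so these may not be 4 separate results. At 24 months it was -1.98 in the diaphragm (SE 0.403, adjusted p = 0.00859) and -1.75 in the gastrocnemius (SE 0.270, adjusted p = 4.35e-06). The soleus gave -1.99 (SE 0.339, adjusted p = 8.39e-05) and the tibialis anterior -1.70 (SE 0.297, adjusted p = 7.01e-05). At 21 months it lay between -1.88 and -1.59. The 6-month males were not of 1 level: in each limb muscle replicates 6 and 7 were low, at 6.41 and 7.0 CPM of Timp4 in the gastrocnemius where the other 6 libraries held 18.7 to 25.5 CPM, and replicates 0, 1 and 2 were low in the diaphragm. When any 1 replicate number was left out, the male change at 24 months stayed between -1.04 and -0.78 in the gastrocnemius and between -1.30 and -1.05 in the tibialis anterior, and was called each time. The 21-month calls held in 4 of 10 such refits in the male soleus, 6 in the female diaphragm and 8 in the female soleus. They held in all 10 in the gastrocnemius of both sexes and in the male tibialis anterior.

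Adamts4, an aggrecanase chosen for description after its values were seen, ran the other way by sex. In the gastrocnemius its female median was 0.693 CPM (0.456 to 1.21) at 6 months, 0.376 CPM (0.113 to 0.558) at 21 and 0.330 CPM (0.189 to 0.705) at 24 months. Its male median was 0.398 CPM (0.209 to 0.936), 1.2 CPM (0.609 to 3.31) and 0.908 CPM (0.334 to 2.27) at the same ages. The male minus female difference in the change of Adamts4 was 2.6 (SE 0.519, adjusted p = 0.000386) at 21 and 2.19 (SE 0.492, adjusted p = 0.00235) at 24 months in the gastrocnemius, and 2.18 (SE 0.545, adjusted p = 0.00769) and 2.37 (SE 0.517, adjusted p = 0.00159) in the tibialis anterior. It did not pass in the diaphragm or soleus, where the values were 1.64 and 2.11 at 21 months. Within 1 sex, the 24-month call of Adamts4 held in 5 of 10 refits without a replicate number in the male gastrocnemius and 9 in the female gastrocnemius. In the tibialis anterior it held in 9 of 10 for males and 6 of 10 for females. Collection was between 9 am and 1 pm on 1 day for each age group, and the hour of each mouse was not given in the sources used here. If the sexes of an age were collected on different days, these differences cannot be told apart from collection day.

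**Figure D4:**
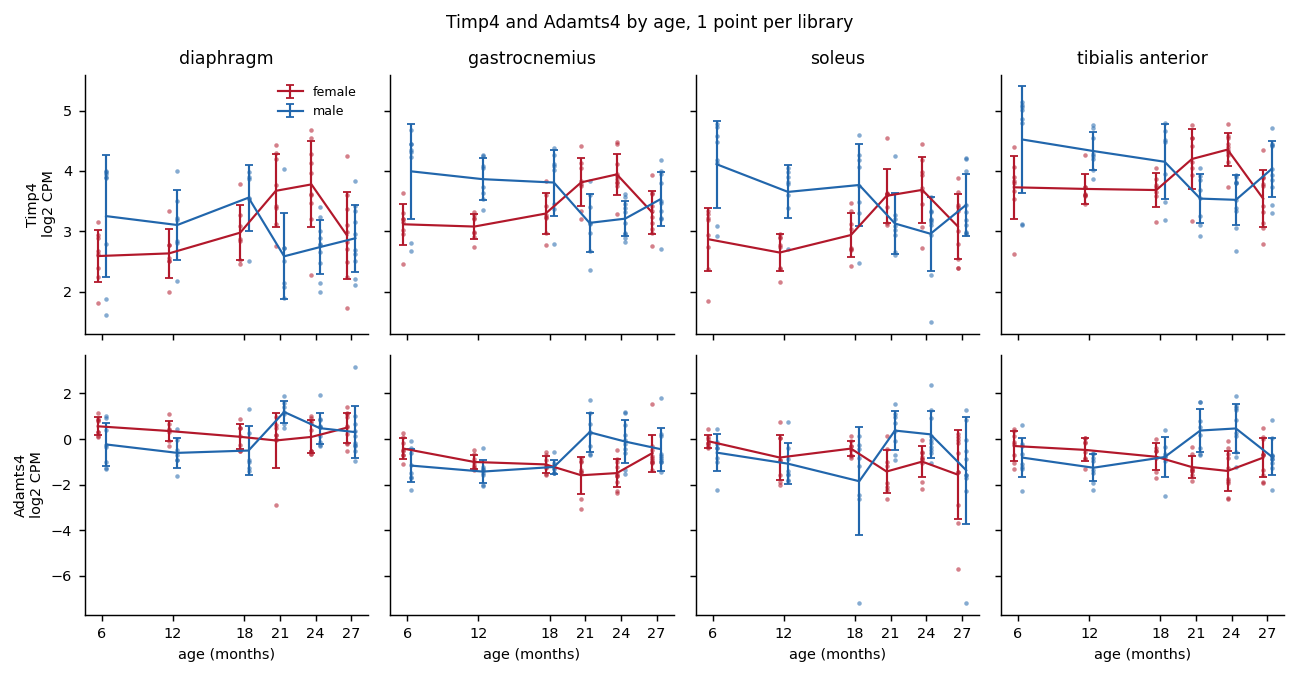
Log2 CPM per library of Timp4 and Adamts4 at 6 to 27 months in females and males, for each muscle. Lines and bars give the mean and standard deviation of each group. By the fitted changes at 21 and 24 months, Timp4 was higher in females and lower in males than at 6 months, though not called in every muscle. Adamts4 in the gastrocnemius moved the other way.

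Counted over members and the 4 muscles, the interaction of sex and age was called 13 times at 21 months, beside 2.24% of all genes tested, and 20 times at 24 months, beside 2.16%, of 174 tests each. Mmp28 and Mmp14 were among them. The male minus female difference of Mmp28 at 24 months was -0.87 in the gastrocnemius and -0.89 in the tibialis anterior, and that of Mmp14 was 0.71 (gastrocnemius), 1.14 (soleus) and 0.64 (tibialis anterior). Mmp14 itself was called at 24 months in neither sex. Without male 24-month replicate 8, described below, 11 of the 20 calls were left, and the difference of Mmp14 was 0.56, 0.72 and 0.46 in the same muscles and was called in the soleus alone. The other calls lost were those of Mmp2, Mmp3, Mmp19, Timp1 and Timp2 in the soleus, Timp1 in the tibialis anterior and Adamtsl4 in the gastrocnemius (-0.60 to -0.58, at the fold limit), while Timp4, Adamts4 and Mmp28 kept theirs.

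At 27 months the interaction was called in the gastrocnemius only, for 2 of 43 members, beside 0.572% of genes there. These were Mmp28 (-0.63, adjusted p = 0.0351) and Mmp3 (1.52, adjusted p = 0.0140). Both were lost without male 27-month replicate 1, with adjusted p of 0.0582 and 0.0813, and the difference was then 1.07 in Mmp3 and -0.59 in Mmp28, the latter nearly as large as with it. In the other 3 muscles (diaphragm, soleus, tibialis anterior) edgeR called no member, and there 0%, 0.34% and 0.763% of genes were called and 8, 8 and 9 members had an unadjusted p below 0.05. Without the 2 libraries high in liver markers the diaphragm gave Mmp8 (4.66, adjusted p = 0.0312) and Timp1 (3.04, adjusted p = 0.0254), and without the 6 that stood apart it gave Timp1 (3.00, adjusted p = 0.0456). The male change of Timp1 in these rests on 27-month replicate 8, without which it was 1.19 and not called.

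The change from 6 to 27 months was also compared between muscles, with 1 test over the 4 muscles in each sex. In females 4 of 44 members were called, beside 3.8% of all genes: Mmp8 (adjusted p = 0.00259), Timp1 (adjusted p = 0.0297), Mmp3 (adjusted p = 0.0313) and Adamts8 (adjusted p = 0.0319). For Mmp8 the largest difference from the change in the gastrocnemius was -4.42, in a gene with a median of 4 counts per library. In the fits of single muscles it passed the filter in the diaphragm alone among females, where its change was -1.32 and not called. The change of Timp1 was 1.15 in the gastrocnemius and between -0.37 and 0.09 in the other 3 muscles, that of Mmp3 was 1.75 in the diaphragm and 0.46 in the soleus, and that of Adamts8 was -1.08 in the tibialis anterior, -0.74 in the soleus and 0.12 in the gastrocnemius. Without female 27-month diaphragm replicate 0 the call of Mmp3 was lost (adjusted p = 0.0540). Without the 6 diaphragm libraries 9 members were called, with Mmp2, Mmp9, Mmp13, Adamtsl4 and Adamtsl5 added. In males no member of 44 was called by edgeR's quasi-likelihood test, where 1.59% of genes were and 5 members had an unadjusted p below 0.05.

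Over the 5 older ages, 93 member calls were made when a gene was counted once in each combination of muscle and sex, and 7.55% of all gene tests were called in the same way. By age there was 1 call at 12 months, 14 at 18, 42 at 21, 58 at 24 and 57 at 27 months, of 342 tests each, and of all gene tests 0.127%, 1.2%, 3.53%, 3.55% and 4.18% were called. Without the 6 diaphragm libraries that stood apart the totals were 1, 16, 42, 60 and 63, but the diaphragm calls changed within them. At 21 months the female diaphragm went from 3 to 7 calls, with Adamts2, Adamts19, Mmp2 and Mmp13 added, and the male diaphragm from 5 to 1, with Adamts3, Adamts19, Mmp3 and Mmp16 lost. At 24 months the female diaphragm went from 9 to 12 and lost Mmp8, and the male diaphragm went from 2 to 1 and lost Mmp16. The 93 age courses were then set against a constant, a straight line over the log of age and a logistic curve by the Bayesian information criterion. A line down described 38 and a line up 20, a logistic curve 8, and 27 were not age-related. Mmp3 in the female diaphragm and Timp1 and Mmp17 in the female gastrocnemius were late and upward, with the steepest point of the curve at 25.75, 22.25 and 23.25 months. Adamts2 in the female gastrocnemius was early and downward, at 11.5 months. Timp4 in the female diaphragm and soleus was called at 21 and 24 months and had no age-related class.

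At 24 months, male limb replicate 8 stood out in 3 muscles. Its macrophage markers summed to 319 CPM in the gastrocnemius, 660 CPM in the soleus and 330 CPM in the tibialis anterior, against group medians of 98.8, 122 and 85.7 CPM. In the soleus this library held 45.6 CPM of Mmp3, 33.5 CPM of Timp1 and 56.8 CPM of Mmp19, and in the tibialis anterior 23.0, 13.7 and 27.6 CPM. Mmp3 remained called at 24 months without these libraries, with its change going from 3.70 to 2.12 in the soleus and from 2.83 to 1.34 in the tibialis anterior. The calls of Timp1 in the tibialis anterior (2.75 to 0.67) and of Mmp19 in the soleus (1.81 to 0.65) and tibialis anterior (1.33 to 0.43) were lost, as were Mmp25 in the tibialis anterior, Mmp8 in the gastrocnemius and soleus and Mmp12 in the gastrocnemius. Adamts12 was added in the gastrocnemius, and the 58 calls became 52. The labels do not say whether these 3 libraries came from 1 mouse, and the part of macrophages in these values was not tested.

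Muscles of different build were compared at 6 months, in 1 fit of the 4 muscles for each sex. Against the mean of the 3 limb muscles, the diaphragm had 24 of 42 members higher and 5 lower in females, beside 28.8% and 17.4% of all genes. In males 21 of 43 were higher and 4 lower, beside 27.5% and 15.2%. The median log2 difference over members was 0.76 in females and 0.54 in males, and over all genes 0.05 and 0.09.

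Adamts19, an Adamts gene known for its role in heart valves, was higher by a fitted 4.22 (SE 0.344) in females and 5.29 (SE 0.441) in males. It passed the filter through the diaphragm, and its 8 male libraries held 439 counts in all in the diaphragm against 42 in the soleus, 15 in the gastrocnemius and 1 in the tibialis anterior, so that the size of the fitted difference depends on the prior count. Adamts19 lay between 0.464 and 2.03 CPM in the 6-month female diaphragm and at most 0.280 CPM in the limb muscles of the same sex. Mmp12 was higher by 3.62 (SE 0.307) and 3.98 (SE 0.380), with a median of 1.25 CPM in the female diaphragm and 0.0601 to 0.152 CPM in female limb muscle, and macrophage markers there summed to a median of 284 CPM against 55.6 to 139 CPM. Mmp23 was higher by 2.99 (SE 0.223) and 3.09 (SE 0.270), with medians of 7.38 and 6.65 CPM in the diaphragm, although replicate 2 of each sex, 1 of those that stood apart, held 0.451 and 0.157 CPM. Mmp16 was higher by 2.13 (SE 0.134) and 2.74 (SE 0.155). Mmp13 was higher by 3.89 (SE 0.691) and 2.35 (SE 0.476), and in the female diaphragm 1 library reached 15.1 CPM around a median of 0.338, beside cartilage and bone markers of up to 109 CPM (median 15.7) in that group. The gelatinase Mmp9 and the propeptidase Adamts3 were also higher in the diaphragm of both sexes, Mmp9 by 1.89 and 1.55 and Adamts3 by 0.71 and 1.44.

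Adamts8, Adamts16, Mmp15 and Timp4 were lower in the diaphragm than in the mean of the limb muscles in both sexes. Adamts8 differed by -1.33 (SE 0.186) in females and -1.11 (SE 0.243) in males, but its mean in the diaphragm, 1.87 and 1.22 CPM, was above that in the gastrocnemius, 1.11 and 0.722 CPM, and below those in the soleus and tibialis anterior. Mmp15, a membrane-type Mmp, differed by -0.88 (SE 0.190) and -0.72 (SE 0.225). Timp2 was higher there by 0.88 (SE 0.0944) and 0.86 (SE 0.0841), and Timp4 lower by 0.63 and 0.82. Without the libraries that stood apart, the diaphragm calls of Timp4 in females (-0.54) and of Mmp15 (-0.56) and Adamts6 (0.58) in males went under the fold limit, while Mmp11 in females and Mmp2, Mmp11, Mmp17, Timp1 and Adamtsl5 in males were added as higher.

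Against the mean of gastrocnemius and tibialis anterior, the soleus had 15 members higher and 1 lower of 42 in females, beside 20.5% and 11.1% of genes, and 11 higher and 2 lower of 43 in males, beside 16% and 11.4%. Timp1 was higher by 2.47 (SE 0.250) and 2.39 (SE 0.343), with medians of 1.79 CPM in the female soleus and 1.15 CPM in the male soleus against 0.215 to 0.308 CPM in the other limb muscles of either sex. The lowest soleus library of Timp1 was above the highest library of gastrocnemius and tibialis anterior in females, at 0.928 against 0.648 CPM. Adamts19 was higher in the soleus by 2.29 and 2.74, Mmp16 by 1.26 and 1.32 and Adamts8 by 1.42 and 1.5. The Adamts8 contrast averages unlike muscles, since its female medians were 9.01 CPM in the soleus, 10.7 CPM in the tibialis anterior and 0.998 CPM in the gastrocnemius. Mmp15 was lower by 0.83 and 0.69.

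The genes around the members were counted from fixed lists, beside 2.96% of all gene tests called higher and 1.21% lower at 27 months. Of the matrix substrates, such as fibrillar collagens and fibrillins, 35 of 144 tests were called lower at 27 months and none higher. The related genes with the most calls were Col1a2 (lower in 7 of 8 combinations), Col1a1 (6), Col3a1 (5), Fbn2 and Col5a1 (4 each), and the change of Col1a2 lay between -1.46 and -0.54. Genes for activation and inhibition of matrix proteases gave 4 higher and 6 lower calls of 146 tests. Of the higher calls, 3 were of the plasma protein genes Plg (4.29), Pzp (3.82) and Serpinf2 (3.70) in the female tibialis anterior, where the liver markers were also higher. Other matrix proteases gave 5 higher and 9 lower calls of 159 tests, and further Adamts-like and papilin genes none of 16. In both of the protease lists the share of higher calls was close to that of all gene tests. Fibroblast markers gave 27 lower calls and none higher of 80 tests. Their summed level in the female soleus went from a median of 1952 CPM (1319 to 2295) to 995 CPM (722 to 1454). The fibroblast list holds Col1a1, Col1a2 and Col3a1 as well, so their 6, 7 and 5 lower calls are counted in both lists. Its counts and sums are thus not separate from the collagen result. Tendon markers gave 24 lower calls and none higher of 64 tests, and cartilage and bone markers 10 lower and 2 higher of 36, with 5 of 6 lower in the male gastrocnemius and 2 of 4 in the female soleus. The part of fibroblast, tendon or cartilage content in the lower levels of Adamts2, Adamts3, Adamts12, Mmp2 and Mmp16 was not tested.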

How the data were processed

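Strand-specific total RNA libraries of whole muscle were sequenced as paired reads. The authors mapped the reads to mm10 and deposited raw counts per gene from the ArrayStudio pipeline with an in-house RefSeq gene model, 1 file per library, with no normalization (pipeline version not given in the sources used here). Of 25091 rows, 633 repeated the symbol of another row, none of them a member, and were left out in favour of the row with the highest total (0.0335% of counts). No 2 libraries held identical values. Replicates are separate libraries of 1 group, and p-values measure the spread between these samples.

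Each muscle and sex was fitted on the counts with all 6 ages in edgeR 4.0.16 (R 4.3.3): filterByExpr, TMM scaling, glmQLFit and glmQLFTest, adjusted p below 0.05 and fold above 1.5. Muscles at 6 months and interactions were fitted in the same way. Levels are CPM on TMM-scaled totals over all 407 libraries, and log2 levels used a prior count of 0.5. Lengths came from GENCODE M21, positions and promoter windows from RefSeq GRCm38.p6. The steps were tested on simulated counts. Alternatives were limma-voom (limma 3.58.1), DESeq2 1.42.0, RLE scaling, no filter, Bonferroni adjustment, no fold limit, a replicate block, 6 and 27 months only, and each replicate number left out (96 fits). Fits without named single libraries or those that stood apart, and the interactions at 21 and 24 months were added after the data were seen.

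The members and the gene lists were chosen with earlier results of these data known. Values are given in full for the Timps, Mmp2, Mmp9 and Mmp14, members called at 27 months in 3 or more of 8 combinations, the 6 largest changes with age and the 6 largest between muscles, members called for an interaction with age at 27 months, and the 5 related genes with the most calls; further members named with values were chosen after these were seen.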

Additional observations from a re-analysis of the deposited data

Results flagged for a closer look

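In 24 of 152 groups tested, the highest or lowest library stood apart from the rest by Dixon's test, which flags about 1 group in 20 by chance. Diaphragm libraries with low correlation to their groups gave several: female 6-month replicate 2 was low in Adamts2 (15.3 CPM, group median 37.3) and Mmp2 (24.0, median 94.1), female 27-month replicate 0 in Mmp2 (13.4, median 53.6), and male 6-month replicate 2 was low in Mmp25 (0.0262, median 0.317) and Timp1 (0, median 0.730) and high in Mmp16 (7.63, median 4.03). Male 27-month diaphragm replicate 8 was high in Timp1 (28.0 CPM, median 0.892), and female 27-month gastrocnemius replicate 0 in Adamts7 (5.58, median 0.770).

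Male 24-month replicate 8 was high in Mmp3 (45.6 CPM, median 2.03) and Mmp19 (56.8, median 3.15) in the soleus, and in Mmp3 (23.0, median 1.15), Timp1 (13.7, median 0.365) and Mmp19 (27.6, median 2.56) in the tibialis anterior. In the female soleus, 6-month replicate 1 was high in Mmp16 (3.55 CPM, median 1.94) and Adamts15 (6.98, median 3.81), 27-month replicate 7 had no read of Adamtsl2 (0 CPM, median 0.614), 21-month replicate 5 was high in Timp4 (23.3, median 12.3), and 21-month replicate 4 was low in Mmp14 (6.96, median 9.57). Male soleus 21-month replicate 7 was high in Timp4 (19.0 CPM, median 8.34). In the male gastrocnemius, 6-month replicate 6 was low in Adamts3 (1.67 CPM, median 3.00) and 24-month replicate 6 low in Mmp28 (0.716, median 1.26). Adamts10 was low in male 6-month tibialis anterior replicate 0 (4.48 CPM, median 5.44). Mmp13 was at 0 in male 27-month tibialis anterior replicate 2 (median 0.801) and in female 6-month gastrocnemius replicate 4 (median 0.0344).

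The change with age differed between the sexes by edgeR's interaction test in the following members, given as the male minus female difference in log2 fold change against 6 months. At 27 months these were Mmp28 (-0.63) and Mmp3 (1.52) in the gastrocnemius. At 21 months, Timp4 differed by -1.88 (diaphragm), -1.66 (gastrocnemius), -1.71 (soleus) and -1.59 (tibialis anterior), Adamts4 by 2.6 in the gastrocnemius and 2.18 in the tibialis anterior, Mmp28 by -0.86 and -0.99 in these muscles, and Mmp14 by 0.62 in the gastrocnemius and 0.98 in the soleus. At 24 months, Timp4 differed by -1.98, -1.75, -1.99 and -1.70 in the same order of muscles, Adamts4 by 2.19 in the gastrocnemius and 2.37 in the tibialis anterior, Mmp28 by -0.87 and -0.89, and Mmp14 by 0.71, 1.14 and 0.64 for gastrocnemius, soleus and tibialis anterior (0.56, 0.72 and 0.46 without male 24-month replicate 8). Between the 4 muscles of females the change from 6 to 27 months differed for Mmp8 (adjusted p = 0.00259), Timp1 (0.0297), Mmp3 (0.0313) and Adamts8 (0.0319).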

How the results depend on the processing

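No called member changed direction at 27 months under any alternative run. With Bonferroni adjustment, the 57 calls became 13: 0 and 1 in the female and male diaphragm, 2 and 4 in the gastrocnemius, 1 in the female soleus, and 1 and 3 in the tibialis anterior. Bonferroni also gave 21 in place of 93 calls at any older age, 46 in place of 83 between muscles (diaphragm 16 in females and 14 in males, soleus 9 and 7), 0 for both interactions at 27 months, and 3 and 4 for sex and age at 21 and 24 months. With no fold limit there were 17 calls in the female and 17 in the male gastrocnemius, 13 in the female soleus, 14 in the male tibialis anterior, and 25 and 20 between soleus and the fast muscles. limma-voom gave 3 and 5 calls in the female and male diaphragm, 1 for sex and age at 27 months and 12 at 24 months. The replicate block gave 3 and 4 calls in the female and male diaphragm, as did fits of 6 and 27 months only. The labels' replicate numbers did not meet the rule for pairing: in none of 20 comparisons of 8 pairs was every correlation above 0.1, and at most 5 of 8 libraries correlated best with their own number. Between limb muscles of 1 sex at 6 months, however, 4 to 7 of 8 pairs were above 0.1 and the median r reached 0.303, so that libraries of 1 number may share a mouse, and the fits across muscles took them as independent. With the block there were 80 calls between muscles and 3 for muscle and age, and counts elsewhere were within 1.5 times.

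Without the 6 diaphragm libraries that stood apart, calls were 8 in the female diaphragm, 1 for sex and age in the diaphragm and 9 for muscle and age in females. Without the 2 libraries high in liver markers, sex and age gave 4 calls, 2 of them in the diaphragm, and without male 27-month gastrocnemius replicate 1 it gave 0. Without male 24-month limb replicate 8, sex and age at 24 months gave 11 calls and the male soleus 2 at 27 months, and without male 27-month diaphragm replicate 8 the male diaphragm gave 5. Leaving out each replicate number gave 48 to 63 calls at 27 months in all: 2 to 6 in the female diaphragm, 4 to 11 in the male diaphragm, 7 to 10 and 9 to 14 in the gastrocnemius of females and males, 6 to 11 and 1 to 3 in the soleus, and 6 and 4 to 10 in the tibialis anterior. The count moved over 1.5 times without replicate 3, 4, 5, 7 or 9 in the female diaphragm, 8 in the male diaphragm (4 calls), 6 or 8 in the male soleus (2 and 3) and 2 or 3 in the male tibialis anterior (4 and 5). The causes were not tested. Age-related classes numbered 66, 63 with age in months and 49 with stricter margins.

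Depth limits the lowest members: Mmp8, Mmp12, Mmp13 and Mmp27 had median counts of 4, 14, 11 and 5 per library, and their fold changes depend on the fitted prior count. GC content, RNA quality and cell composition of the libraries were not modelled, and age cannot be told apart from collection day.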
